A study of Mus musculus with 157 samples.

Results

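The nucleolar and ribosome biogenesis genes described here are 33 mouse genes. Most have products that make ribosomes or sit in the nucleolus, and Odc1 and Nme1 are enzymes of cell growth. They were followed by their level in every library of the series. The members were chosen by symbol: the Ensembl mouse identifiers of both deposited gene tables were matched to the 33 names, and 33 of 33 were found as 1 row each, of 50686 rows per table, 50376 of them with a symbol. Gene coordinates and names are those of GRCm38. The series holds 157 bulk RNA-seq libraries of mouse thymus and thymic lymphoma in 23 groups, 81 in an earlier run and 76 in a later one. It set libraries of genotype Cdc20(D/AAA), called aneuploid by the submitters, against control libraries of genotype Cdc20(+/D). The product of Cdc20 activates the anaphase-promoting complex, and its AAA form is known to escape inhibition by the spindle checkpoint. Control and mutant libraries of the Cdc20 lines shared 1 D allele.

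The earlier run held RERT2-Cdc20(+/D) non-tumoral thymocytes sorted as DN1 (n = 6), DN2 (n = 8), DN3 (n = 8) and DN4 (n = 8), the double negative stages in their order of development, and as DP, the CD4 and CD8 double positive stage that follows (n = 7). It also held RERT2-Cdc20(D/AAA) cells sorted as DN1 (n = 9), DN2 (n = 1), DN3 (n = 5), DN4 (n = 6) and DP (n = 11), and RERT2-Cdc20(D/AAA) early tumours sorted as DP (n = 5) or not sorted (n = 7). The later run held unsorted tissue. Its non-tumoral thymus was RERT2-Cdc20(+/D) (n = 6), RERT2-Cdc20(D/AAA) (n = 9), RERT2-Cdc20(+/D) with MYCChr6 (n = 2) and RERT2-Cdc20(D/AAA) with MYCChr6 (n = 3). Its thymic lymphomas were RERT2-Cdc20(D/AAA) (n = 22), the same with p53(+/D) (n = 10) or with MYCChr6 (n = 3), LCK-Cdc20(D/AAA) with MYCChr6 (n = 14), LCK-Cdc20(+/D) with MYCChr6 (n = 4), CD4-Cdc20(D/AAA) with MYCChr6 (n = 2) and p53(-/-) (n = 1). RERT2, LCK and CD4 are the line names of the labels, which explain neither them nor MYCChr6. Ages are not stated there, nor are treatments, nor whether libraries of a group came from separate mice, so the p-values below measure the spread between these libraries, which may be partly technical. The tables held mouse genes, so Myc below is the mouse gene. The labels do not say whether MYCChr6 is a human or a mouse copy, so how much of its RNA was counted as Myc is not known.

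Ribosomes are made in the nucleolus, where RNA polymerase I transcribes the ribosomal RNA precursor, small nucleolar ribonucleoproteins (snoRNPs) guide its methylation and pseudouridylation, and assembly factors fold and cut it into the small and the large subunit. The transcription factor MYC is known to activate many genes of this machinery, and thymocytes that pass beta selection are known to grow and divide quickly before they rest at the DP stage. The 33 members were ordered by role into 7 nucleolar scaffold, GTPase and helicase genes (Ncl, Npm1, Nolc1, Tcof1, Mybbp1a, Gnl3 and Ddx21), 2 RNA polymerase I subunits (Polr1a and Polr1b), 4 box C/D snoRNP genes (Fbl, Nop56, Nop58 and Rrp9) and 4 box H/ACA snoRNP genes (Dkc1, Gar1, Nhp2 and Nop10). The remaining members were 5 small-subunit assembly factors (Heatr1, Wdr43, Nop14, Noc4l and Rrp12), 9 large-subunit assembly factors (Pes1, Wdr12, Rrs1, Nop2, Nop16, Ppan, Rrp1b, Noc2l and Noc3l) and 2 enzymes of cell growth (Odc1, of polyamine synthesis, and Nme1, a nucleoside diphosphate kinase). On GRCm38, Gnl3 spans 31012433 to 31019152 on chromosome 14, Npm1 33152287 to 33163206 on chromosome 11, and Ncl and Wdr12 86344719 to 86359400 and 60069785 to 60098645 on chromosome 1, all on the minus strand. No member lies on chromosome 15, which carries Myc.

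Promoter windows from RefSeq (GRCm38.p6, 250 bases before to 50 after each start) were at hand for 28 of the 33 members, and they are shown because most members moved together. CACGTG, the palindrome that MYC with MAX is known to bind, lay in a window of 5 of the 28 (17.9%: Mybbp1a, Nme1, Nop2, Pes1 and Wdr43) and of 8.09% of the 27025 symbols in the table. The ETS-type motif CCGGAAGT, searched on both strands, also lay in 5 members (17.9%: Gar1, Heatr1, Nhp2, Noc2l and Ppan) and in 4.31% of symbols. CCAAT, on both strands, lay in 7 members (25%) and in 41.06% of symbols. None of these motifs overlaps another in its letters. The 120 bases before the start follow for Nop2 and Nme1, as examples with CACGTG (in capitals), for Gnl3, the member with the deepest fall at the DP stage, and for Wdr12, the member that rose there. They are written along each gene's own strand: Nop2 at chr6:125131763-125131882 (+), Nme1 at chr11:93968273-93968392 (-, the first of 2 windows), Gnl3 at chr14:31019132-31019251 (-) and Wdr12 at chr1:60098501-60098620 (-, the first of 3 windows).
Nop2: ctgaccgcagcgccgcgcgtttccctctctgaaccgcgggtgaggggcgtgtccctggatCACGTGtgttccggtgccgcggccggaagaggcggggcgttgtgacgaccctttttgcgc
Nme1: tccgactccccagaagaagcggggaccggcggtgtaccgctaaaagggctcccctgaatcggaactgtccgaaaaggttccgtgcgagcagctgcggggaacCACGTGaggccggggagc
Gnl3: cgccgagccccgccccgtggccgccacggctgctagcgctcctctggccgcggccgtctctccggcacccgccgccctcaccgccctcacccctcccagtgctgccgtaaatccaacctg
Wdr12: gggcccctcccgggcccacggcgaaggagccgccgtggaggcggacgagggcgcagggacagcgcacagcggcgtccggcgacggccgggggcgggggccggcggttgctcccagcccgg
The last 2 stretches hold no CACGTG, and the windows of Gnl3 and Wdr12 held none either. The starts are those of RefSeq and can differ from the gene ends given above. By those ends, the Wdr12 stretch lies wholly inside the gene and the Gnl3 stretch partly inside it. These matches describe letters in the windows only.

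Library totals ran from 21199 to 11595463 expected counts (median 6972708) in the earlier run and from 1708619 to 8009572 in the later one. In the later run 1 gene, CT010467.1, took 30.1% to 55.95% of each library, against 0.223% to 2.68% in the earlier run, and levels are therefore compared within a run only. Sorting markers followed the DP label: the median of Cd4 was 1877 CPM (a gene's count scaled to its library's TMM-adjusted total) in +/D DP cells and at most 23.9 CPM at the DN stages. The libraries labelled DN1 had high Cd44 (median 205 CPM) but a Kit median of 10.7 CPM, below the 62.2 CPM at DN2, although Kit is known to mark the earliest thymic progenitors. The 7 unsorted early tumours had Cd8a between 0.595 and 43.5 CPM, against at least 1587 CPM in +/D DP cells. In bulk RNA, fewer cells of a type and less RNA per cell cannot be told apart.

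Along the +/D stages the module was lowest at DN1 among the double negative cells, highest at DN4 and lowest of all stages at DP. The mean log2 CPM over the 33 members ran from 6.465 to 6.798 in the 6 DN1 libraries, from 7.185 to 7.439 at DN2, from 7.377 to 7.709 at DN3 and from 7.584 to 7.919 at DN4, and then from 5.486 to 5.752 in the 7 DP libraries. The DN1 and DP ranges did not touch any other stage, while neighbouring ranges from DN2 to DN4 overlapped. The 4 steps shared neighbouring groups, so their values are given side by side and not as independent results.

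**Figure D1:**
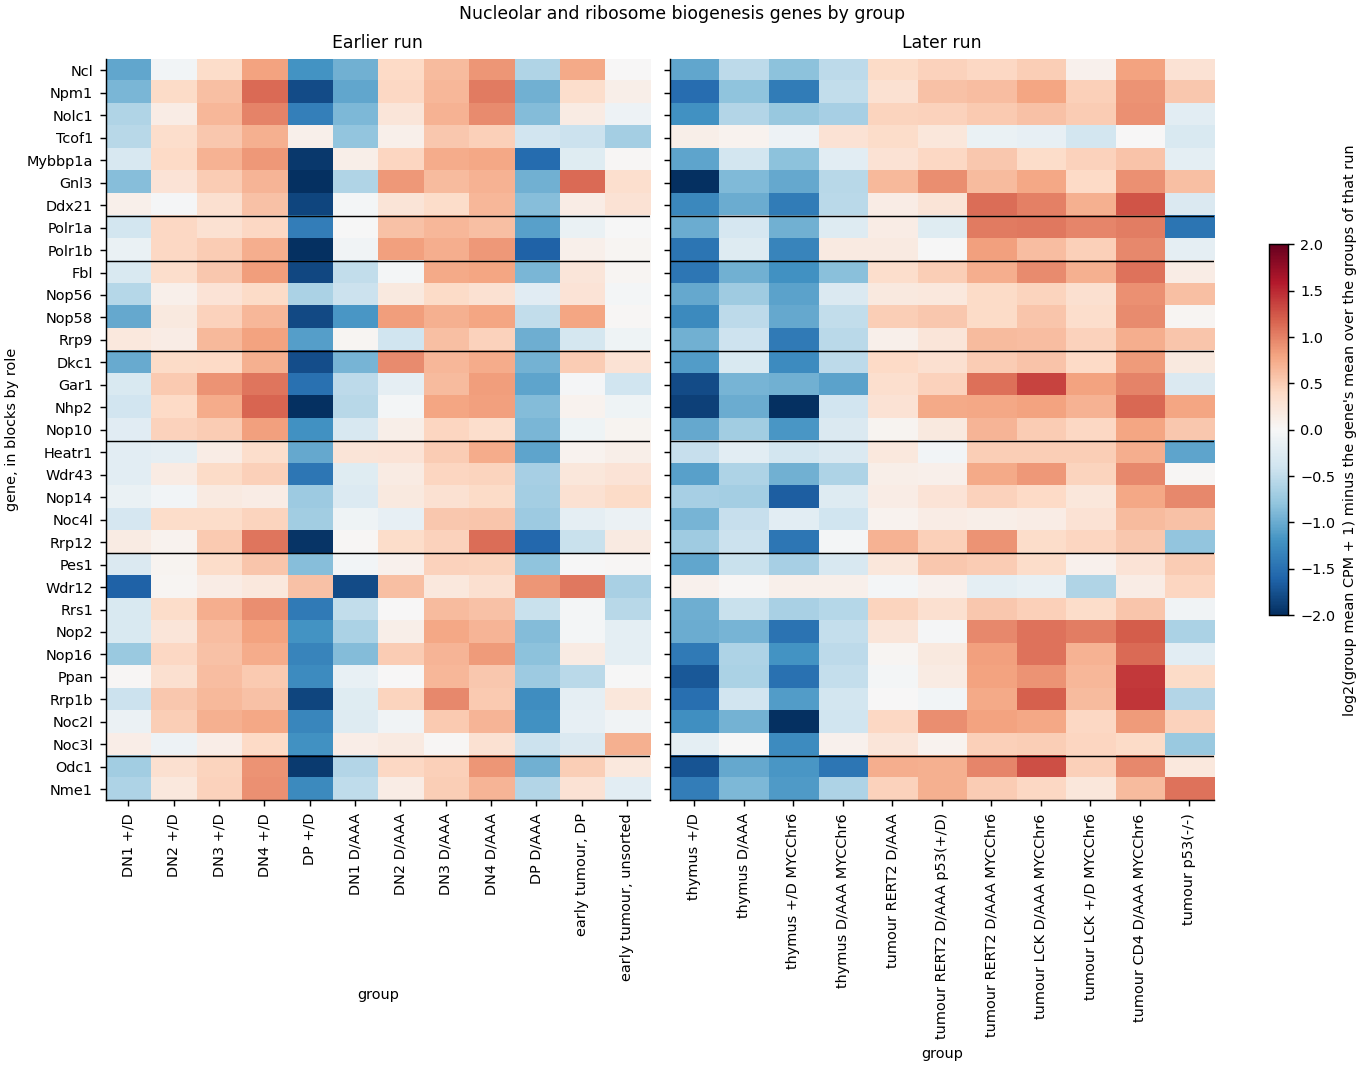
Level of each of the 33 members (rows, in blocks by role) in each group (columns) of the earlier run (left) and the later run (right), as log2 of the group's mean CPM + 1 minus the gene's mean over the groups of that run (colour scale from blue, lower, to red, higher). In the earlier run the +/D DP column is blue for every member but Wdr12 and Tcof1, and in the later run most members are blue in the thymus columns and red in the tumour columns.

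From DN1 to DN2, 25 of 33 members rose and 0 fell by edgeR's quasi-likelihood test with Benjamini-Hochberg adjustment at 0.05, where 24.6% of the 15278 genes tested rose and 23.9% fell. The median change was 0.69 on the log2 scale, with 29 of 33 above 0, against 0.00 over all genes tested. Wdr12, a large-subunit factor that works in a complex with Pes1, went from 28.7, 45.7 and 57.4 CPM (lowest, median and highest) at DN1 to 120.4, 132.7 and 173.9 CPM at DN2. Its 2 ranges did not overlap, and the change of 1.66 ± 0.14 (SE; adjusted p = 5.3e-13, edgeR) was the largest of the module. Npm1, the chaperone nucleophosmin, rose by 1.29 ± 0.14 (adjusted p = 4.01e-10), and Dkc1, the pseudouridine synthase of the H/ACA particles, by 1.38 ± 0.17 (adjusted p = 1.55e-08). Nop58, a core protein of the C/D particles, rose by 1.22 ± 0.11, and Ncl, nucleolin, by 0.98 ± 0.11.

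The rise reached 6 of 7 scaffold genes, 3 of 4 C/D genes, 4 of 4 H/ACA genes, 7 of 9 large-subunit factors and both enzymes, but 1 of 2 polymerase subunits and 2 of 5 small-subunit factors. Polr1b, the second-largest subunit of RNA polymerase I, had 0.54 ± 0.32 and did not pass (adjusted p = 0.163). Heatr1 (0.03), Nop14 (0.07), Rrp12 (-0.10), Rrp9 (-0.07), Ddx21 (-0.13), Noc3l (-0.25) and Ppan (0.28) were not called either. Fbl, the methyltransferase fibrillarin, rose by 0.65 ± 0.11, Nop56 by 0.67 ± 0.11 and Myc by 0.60 ± 0.18 (adjusted p = 0.00598). Markers of other cells and of division moved with the same step: the 15 proliferation markers rose (15 of 15), their summed level going from 791.2 to 974.5 CPM at DN1 to 3689 to 7237 CPM at DN2. The 8 NK and innate markers fell (8 of 8), from sums of 3281 to 4409 CPM to sums of 251.7 to 587.9 CPM, and 5 of 8 B and plasma cell markers fell, with sums of 6280 to 10190 CPM at DN1 and 392.7 to 29400 CPM at DN2, so that these ranges overlapped. Of the myeloid and dendritic markers 9 of 10 tested fell, from sums of 250.8 to 1381 CPM to sums of 47.1 to 116.2 CPM. Their part in the members' result was not tested. Without the 3 DN2 libraries with the highest B and plasma cell sums, 26 members rose (3674 of 15539 genes). In 1 fit of all groups of the run 16 did (3039 of 16998 genes), without a call for Fbl or Myc.

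Between DN2 and DN4 few members were called at either step, and DN4 was not tested against DN2. The ranges of member means at DN2 (7.185 to 7.439) and DN4 (7.584 to 7.919) did not overlap. From DN2 to DN3, 3 members rose and 0 fell, where 1.2% of genes rose and 3.14% fell: Ncl by 0.44 ± 0.10, Nolc1, a chaperone of snoRNPs, by 0.54 ± 0.14 (adjusted p = 0.0206) and Pes1 by 0.33 ± 0.10 (adjusted p = 0.048). The median of the 33 was 0.27, with 32 of 33 above 0. From DN3 to DN4, 3 rose and 0 fell, where 7.47% of genes rose and 7.53% fell: Npm1 by 0.48 ± 0.12 (adjusted p = 0.00593), Nme1 by 0.38 ± 0.12 and Ncl by 0.37 ± 0.10. The median was 0.14, with 28 of 33 above 0, and 3 called of 33 is near the share over all genes. In 1 fit of all groups of the run 0 members rose at either of these steps. DESeq2 called 5 at the second, where 1407 of 16830 genes with an adjusted p rose. Npm1 went from 651.6, 934.9 and 1113 CPM (lowest, median and highest) at DN3 to 903.6, 1367 and 1681 CPM at DN4, so its ranges overlapped. Fbl, Nop56 and Polr1b were not called at either step, with changes between 0.04 and 0.24, and Myc changed by 0.38 ± 0.17 and then by -0.23 ± 0.17, neither called. Without the same 3 DN2 libraries, 1 member rose from DN2 to DN3. Red cell markers rose from DN3 to DN4 (5 of 5 tested), with sums of 0.139 to 5.44 CPM at DN3 and 118.4 to 3182 CPM at DN4, and so did 5 of 8 B and plasma cell markers. Their part was not tested.

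From DN4 to DP, 32 of 33 members fell and 1 rose, where 25% of genes fell and 24.5% rose. The median change was -1.99, against a median of 0.00 over all genes tested. Gnl3, the nucleolar GTPase nucleostemin, had 116.7, 166.7 and 199.8 CPM (lowest, median and highest) at DN4 and 8.03, 12.5 and 23.0 CPM at DP. Every DP library lay below every DN4 library, and the change of -3.39 ± 0.19 on the log2 scale (adjusted p = 1.08e-17, edgeR quasi-likelihood) was the deepest of the module.

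The other scaffold genes differed among themselves in depth. Npm1 went from a median of 1367 CPM to 164 CPM (range 148.9 to 234.7) and fell by 2.84 ± 0.14, and Mybbp1a, a MYB-binding nucleolar protein, fell by 2.71 ± 0.14. Ddx21, an RNA helicase that couples polymerase I to processing, and Nolc1 fell by 2.39 ± 0.17 and 2.27 ± 0.16. Ncl had 1173, 1438 and 1624 CPM at DN4 and 300.9, 342.8 and 491.1 CPM at DP, and fell by 1.91 ± 0.11 (adjusted p = 1.28e-17). Tcof1, treacle, which recruits polymerase I to ribosomal DNA, went from 349.3, 408.9 and 477.1 CPM to 247.6, 270.1 and 305.0 CPM. The 2 Tcof1 ranges were apart, but its fall of 0.52 ± 0.11 (adjusted p = 0.000216) was the smallest of the module.

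Polr1b had 57.2, 94.6 and 145.8 CPM at DN4 and 2.19, 7.96 and 20.5 CPM at DP, and fell by 3.14 ± 0.34 (adjusted p = 5.33e-10). The largest subunit, Polr1a, fell by 1.73 ± 0.23. In the C/D particles Fbl went from 199.6, 293.6 and 308.0 CPM to 36.7, 41.9 and 52.0 CPM and fell by 2.59 ± 0.11, and Nop58 fell by 2.39 ± 0.11. Nop56, their partner, kept a higher part of its level, from 543.1, 690.6 and 859.5 CPM to 269.2, 336.1 and 450.9 CPM, and fell by 0.92 ± 0.10 (adjusted p = 1.46e-09). All 4 H/ACA genes fell, with Nhp2 at -3.16 ± 0.16, Gar1 at -2.52 ± 0.16, Dkc1 at -2.41 ± 0.17 and Nop10 at -1.95 ± 0.16. For Nhp2 the DN4 libraries had 236.0 CPM or more and the DP libraries 46.0 CPM or less.

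Of the small-subunit factors, Rrp12 fell most (-3.06 ± 0.29) and Nop14 least (-0.80 ± 0.18), with Wdr43 at -1.85 ± 0.12, Heatr1 at -1.32 ± 0.32 and Noc4l at -1.04 ± 0.15 between them. Of the 9 large-subunit factors 8 fell, from Rrp1b (-2.39 ± 0.18) and Rrs1 (-2.31 ± 0.18) to Pes1 (-1.32 ± 0.11). Odc1, the rate-limiting enzyme of polyamine synthesis, fell by 2.74 ± 0.16 and Nme1 by 2.10 ± 0.13. Wdr12 was the exception, with 120.1, 152.5 and 198.0 CPM at DN4 and 160.4, 198.8 and 239.3 CPM at DP. Its ranges overlapped, and it rose by 0.48 ± 0.12 (adjusted p = 0.00136), a call that was lost in 1 fit of all groups of the run. The gene Wdr12 overlaps Carf by 399 bases on the opposite strand, and the strand setting of the counting is not given in the sources used here.

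Myc fell further than any member, from 353.5, 454.9 and 519.4 CPM at DN4 to 8.98, 17.8 and 33.2 CPM at DP, a change of -4.26 ± 0.20 (adjusted p = 1.24e-19). The proliferation markers fell at the same step (11 of 15, median -0.98), with sums of 6765 to 9372 CPM at DN4 and 1769 to 4365 CPM at DP. The sums of NK and innate markers were 244.1 to 433.8 CPM at DN4 and 16.5 to 32.7 CPM at DP. Red cell markers fell (5 of 5 tested), from sums of 118.4 to 3182 CPM to sums of 0.495 to 11.5 CPM, and so did 5 of 8 B and plasma cell markers. The part of any of these in the members' change was not tested.

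The other ribosome biogenesis genes, a list of 91 further polymerase I, subunit assembly and exosome genes, were read at the same 4 steps. From DN1 to DN2, 29 of 91 rose and 5 fell (median 0.21), where 24.6% of all genes rose and 23.9% fell, among them Exosc2, an exosome cap subunit, at 1.26, Pelp1 at 1.28 and the polymerase I terminator factor Ttf1 at -0.98. From DN2 to DN3, 3 rose and 0 fell (median 0.19), and from DN3 to DN4, 7 rose and 1 fell (median 0.12), against 1.2% and 7.47% of all genes that rose, so that the count at the second of these steps was near the share over all genes. From DN4 to DP, 70 of 91 fell and 3 rose (median -0.90): 30 of 36 small-subunit factors, 26 of 34 large-subunit factors, 9 of 11 exosome subunits and 5 of 10 genes of the polymerase I machinery. Rrp15 (-2.47) and Tsr1 (-2.36) were the deepest falls in the 2 assembly lists, Exosc2 had -1.64 and Ubtf, which opens ribosomal DNA to polymerase I, -0.90.

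At the sorted stages no member was called between the Cdc20 genotypes when each stage was fitted on its own. At DN1, DN3, DN4 and DP edgeR called 0 of 33 members higher and 0 lower in D/AAA than in +/D cells. Over all genes it called 0.0% higher and 0.0% lower at DN1 and DN3, 0.0% higher and 0.0081% lower at DN4, and 0.0% higher and 0.00803% lower at DP. At an unadjusted p under 0.05 there were 1, 2, 2 and 17 members in that order, and 353, 549, 798 and 1325 genes in all. DESeq2 called 3 members higher and 1 lower at DP (96 and 18 of 15473 genes with an adjusted p) and 0 at the other 3 stages. In 1 fit of all groups of the run edgeR called 7 higher at DP (132 of 16998 genes). Members' medians at DN1, DN3 and DN4 were -0.01, 0.08 and 0.02. The 1 D/AAA library labelled DN2 had a member mean of 7.359, inside the +/D range, and was not tested. One D/AAA DN1 library held 21199 counts, had 13 members at 0 and a member mean of 3.185.

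At DP the D/AAA libraries spread widely. Gnl3 had 225, 17.2, 25.9, 19.98, 67.3, 28.2, 26.1, 18.9, 41.4, 47.2 and 50.8 CPM in the 11 D/AAA libraries, against 8.03 to 23.0 CPM in the 7 +/D libraries. Library 1 stood far above the others and library 5 next, and 3 of the 11 lay within the +/D range. The Gnl3 difference was 1.89 ± 0.47 (p = 0.000492, adjusted p = 0.209, edgeR quasi-likelihood). Ncl (0.66 ± 0.26), Npm1 (0.89 ± 0.34), Fbl (0.97 ± 0.31) and Polr1b (0.90 ± 0.52) were not called either, and Myc had 1.91 ± 0.55 (adjusted p = 0.274). The median was 0.56 with 32 of 33 members above 0. Tcof1 alone lay below 0, at -0.45 ± 0.13 (adjusted p = 0.269), with 247.6 to 305.0 CPM in +/D and 156.2, 189.8 and 256.5 CPM (lowest, median and highest) in D/AAA cells. Member means were 5.553 to 7.553 in D/AAA DP cells, the highest in library 1, whose NK and innate sum was 764.9 CPM and whose chromosome 15 score was 0.79. That score compares each library with the +/D DP cells or the +/D thymus of the same run. It is the mean log2 difference of the chromosome 15 genes minus that of all other genes. The chromosome 15 genes numbered 365 in the DP cells and DP early tumours and 321 in the later run. Myc and genes with a mean under 10 CPM were left out of the score. Library 5 had a chromosome 15 score of 0.60 and a member mean of 6.030. That mean lay below those of libraries 9, 10 and 11 (6.165, 6.339 and 6.194). Without libraries 1 and 5 the median was 0.28, with 26 of 33 above 0 and 0 called.

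**Figure D2:**
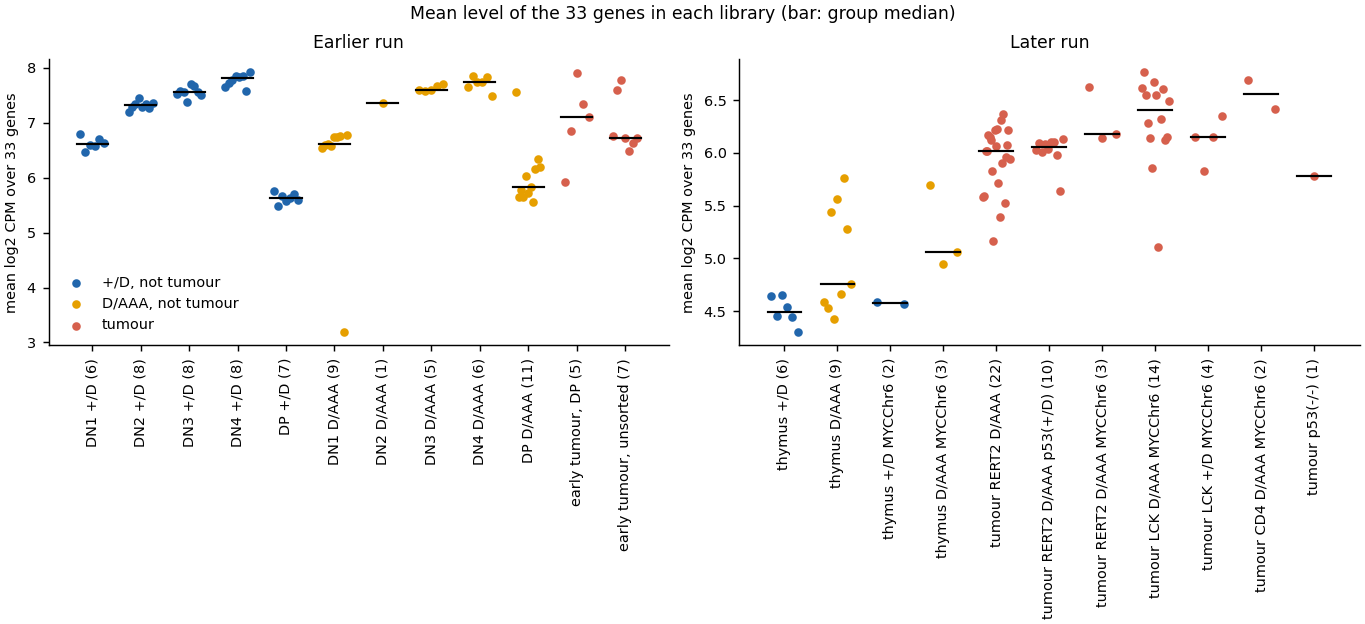
Mean log2 CPM over the 33 members (vertical axis) in every library (points) of each group (horizontal axis, number of libraries in brackets), with a bar at the group median, for the earlier run (left) and the later run (right). The +/D DP libraries lie between 5.486 and 5.752, the D/AAA DP libraries reach 7.553, and the 22 RERT2 D/AAA tumours of the later run lie between 5.162 and 6.366, above all 6 +/D thymus libraries.

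The early tumours sorted as DP differed widely among themselves. Member means were 5.920, 6.854, 7.910, 7.346 and 7.100 in libraries 1 to 5. Gnl3 had 30.9, 192, 416, 212 and 265 CPM, Ncl 583, 1147, 2232, 1885 and 1055 CPM, and Npm1 267, 539.5, 1524, 1033 and 491 CPM. Library 1 was the lowest for all 3 genes and library 3 the highest, and for Gnl3 libraries 3 and 5 lay above every D/AAA DP library. Against D/AAA DP cells, edgeR called 0 of 33 members (0.0% of genes higher and 0.0% lower), with 22 members and 2719 genes at an unadjusted p under 0.05. The median was 0.99, the smallest adjusted p was 0.0799 (Pes1, 0.78 ± 0.19), and Gnl3 had 2.09 ± 0.56, Polr1b 1.75 ± 0.54 and Ncl 1.33 ± 0.33 (adjusted p = 0.0846).

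This count turned on the fit and on single libraries. DESeq2 called 10 members higher, where 368 of 13596 genes with an adjusted p were. In 1 fit of all groups of the run edgeR called 23 (903 of 16998 genes). Without early tumour library 1 it called 16 (682 of 12560 genes). Without the D/AAA DP libraries 1 and 5 it called 27 (1121 of 11930 genes), at a median of 1.28. Myc had 35.3, 209.5, 372, 316 and 288 CPM in the 5 tumours and was lowest in library 1 too. The chromosome 15 scores were 0.10, 0.67, 1.05, 0.85 and 0.86, again lowest there. Proliferation sums ran from 3448 to 8487 CPM and NK and innate sums from 52.9 to 2030 CPM in the 5 tumours, with Ncr1 and Eomes at 0. The part of these in the members' levels was not tested.

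Against the 6 D/AAA DN4 libraries, 2 members were lower in the DP early tumours and 0 higher, where 1.89% of genes were lower and 2.43% higher. Ppan, a large-subunit factor, had 58.2, 122, 179, 125 and 107 CPM in the tumours and 195.3 to 365.0 CPM in DN4 cells. Every tumour lay below every DN4 library, with a difference of -1.05 ± 0.26 (adjusted p = 0.0321). Tcof1 had 138, 143, 289.6, 152 and 214 CPM in the tumours and 297.6 to 454.2 CPM in DN4 cells, again without overlap, with -0.87 ± 0.22 (adjusted p = 0.0364). The median of the 33 was -0.66. The calls were lost without tumour library 2 or 4, and 11 members were lower without library 3 (371 of 11799 genes). DESeq2 called 6 members lower (677 of 15169 genes), and edgeR with no filter on low counts 4 (295 of 25195 genes). In 1 fit of all groups of the run edgeR called 5 lower and 1 higher (661 and 1031 of 16998 genes). Red cell markers were lower in the tumours (5 of 5 tested), with sums of 0.531 to 84.4 CPM against 1825 to 37100 CPM in D/AAA DN4 cells, and their part was not tested.

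In the unsorted early tumours 21 of 33 members were higher than in D/AAA DP cells and 1 was lower, where 15.9% of genes were higher and 13.2% lower. The medians were 0.96 for the members and -0.01 for all genes tested. Rrp12 had 16.96, 41.1 and 86.1 CPM (lowest, median and highest) in the tumours and 4.10, 9.60 and 41.3 CPM in DP cells, and was higher by 1.84 ± 0.43 (adjusted p = 0.00265). Polr1b was higher by 1.73 ± 0.46, Mybbp1a by 1.59 ± 0.29, Npm1 by 1.12 ± 0.39, Fbl by 0.99 ± 0.34 and Myc by 1.69 ± 0.49 (adjusted p = 0.0132). Ncl (0.63 ± 0.33) and Nop56 (0.20 ± 0.27) were not called. Wdr12 went the other way, with 35.5, 65.5 and 207.1 CPM in the tumours and 173.2, 252.5 and 307.9 CPM in DP cells, and was lower by 1.52 on the log2 scale (-1.52 ± 0.31, adjusted p = 0.000849). All 5 small-subunit factors and both polymerase subunits were higher, as were 4 of 7 scaffold genes. Of the 91 other pathway genes 27 were higher and 2 lower, among them Nat10 (2.09) and Tsr1 (1.56).

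These tumours differ in cell content from the DP cells. B and plasma cell markers were higher (6 of 7 tested) and so were NK and innate markers (4 of 5 tested). Their NK and innate sums were 5339, 394.4, 452.1, 5070, 2289, 4309 and 4721 CPM, against at most 764.9 CPM in D/AAA DP cells. Tumour libraries 2 and 3, with the lowest of these sums, had the highest member means (7.592 and 7.771, against 6.483 to 6.761) and the highest sums of the proliferation markers, 6105 and 8748 CPM. Without these 2 libraries 8 members were higher and 2 lower. The part of the other cell types was not tested. Tumours other than 2 and 3 had member means close to those of +/D DN1 cells, which ran from 6.465 to 6.798. Median proliferation sums were 888.9 CPM in the 7 tumours and 921.9 CPM in D/AAA DN1 cells, and median NK and innate sums 4309 and 3921 CPM. The tumours were not compared with DN1 cells by a test, so stage and tumour are not separated here.

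In whole non-tumoral thymus of the later run, 0 of 33 members were called between D/AAA and +/D (0.0% of genes higher and 0.0% lower, edgeR), with 15 members and 907 genes at an unadjusted p under 0.05. DESeq2 called 1 member higher (43 of 14912 genes). The median was 0.57 on the log2 scale. Gnl3 had 2.62, 4.96 and 7.66 CPM (lowest, median and highest) in the 6 +/D libraries and 7.47, 9.69, 23.7, 7.31, 27.5, 5.83, 29.0, 18.7 and 16.6 CPM in D/AAA libraries 1 to 9. Libraries 1, 4 and 6 lay within the +/D range and the other 6 above it, and the difference was 1.70 ± 0.41 (adjusted p = 0.340). Polr1b had 1.31 ± 0.37, Npm1 0.74 ± 0.25, Ncl 0.52 ± 0.23, Fbl 0.51 ± 0.37 and Myc 1.38 ± 0.36, none of them called.

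Libraries 3, 5, 7 and 8 had the 4 highest member means of the D/AAA thymus, 5.436, 5.566, 5.761 and 5.278, against 4.428 to 4.757 in the other 5 and 4.298 to 4.655 in +/D thymus. They were also the 4 with a chromosome 15 score above 0.2925 (0.43, 0.49, 0.52 and 0.32). Without them the median was 0.09, with 21 of 33 members above 0 and 0 called. The proliferation sums of D/AAA thymus ran from 639.1 to 2055 CPM, and those of +/D thymus from 971.0 to 1182 CPM. With MYCChr6, the +/D thymus had member means of 4.588 and 4.563 and the D/AAA thymus 5.692, 4.950 and 5.059, the first of these from the library with a chromosome 15 score of 0.61.

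In RERT2-Cdc20(D/AAA) lymphomas 30 of 33 members were higher than in +/D thymus and 0 lower, where 22.4% of genes were higher and 19.1% lower. The median was 1.47, against 0.05 over all genes tested. Gnl3 had 19.4, 50.4 and 80.7 CPM (lowest, median and highest) in the 22 tumours and at most 7.66 CPM in the thymus. No tumour overlapped the thymus libraries, and Gnl3 was 9.64-fold higher (3.27 ± 0.31 on the log2 scale, adjusted p = 1.18e-09, edgeR). Odc1 had 13.1, 36.9 and 90.7 CPM against 3.36, 6.73 and 11.03 CPM, again with no overlap, and was higher by 2.61 ± 0.31. Gar1, a structural protein of the H/ACA particles, had 6.95, 13.96 and 21.5 CPM against 0.696, 2.56 and 4.62 CPM, and was higher by 2.51 ± 0.31.

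Every role took part. Ncl had 338.7, 470.4 and 670.1 CPM in the tumours and 150.6, 173.1 and 189.0 CPM in +/D thymus, and was higher by 1.42 ± 0.13 (adjusted p = 5.78e-10). Npm1 was higher by 1.83 ± 0.21, Polr1b by 1.74 ± 0.33, Fbl by 1.86 ± 0.24, Nop56 by 1.22 ± 0.20 and Myc by 1.60 ± 0.30 (adjusted p = 9.33e-05). All 4 C/D genes, all 4 H/ACA genes, all 5 small-subunit factors, both polymerase subunits and both enzymes were higher, with 6 of 7 scaffold genes and 7 of 9 large-subunit factors. The 3 that were not called were Wdr12 (-0.14 ± 0.21), Tcof1 (0.24 ± 0.18) and Noc3l (0.49 ± 0.41). Wdr12 had 25.4, 57.1 and 86.4 CPM in the tumours and 46.2, 61.0 and 68.5 CPM in the thymus, so that the tumours spread to both sides of it.

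Of the other pathway genes 63 of 91 were higher and 0 lower (median 0.75): 27 of 36 small-subunit factors, 23 of 34 large-subunit factors, 8 of 11 exosome subunits and 5 of 10 genes of the polymerase I machinery. Pno1 (2.09) and Rrp15 (1.997) were the largest. The 15 proliferation markers were all higher in the tumours (median 1.06), with sums of 1466 to 2709 CPM against 971.0 to 1182 CPM, and 5 of 7 B and plasma cell markers were lower. The part of either in the members' change was not tested.

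Against D/AAA thymus, which shares the tumours of the previous comparison, 24 members were higher and 0 lower, where 18.1% of genes were higher and 16.8% lower. The median was 0.84. Odc1 was higher by 1.79 ± 0.26, Gnl3 by 1.56 ± 0.26 and Gar1 by 1.40 ± 0.25, Ncl by 0.89 ± 0.16, Npm1 by 1.09 ± 0.21, Fbl by 1.33 ± 0.25 and Nop56 by 0.89 ± 0.18. Odc1 had 4.85, 8.25 and 20.03 CPM in D/AAA thymus, so that its range overlapped that of the tumours. Neither polymerase subunit was called (Polr1b 0.43 ± 0.28, Polr1a 0.47 ± 0.21), and Myc had 0.22 ± 0.27 (adjusted p = 0.569) with 64.8, 110.5 and 341.1 CPM in D/AAA thymus and 73.7, 157.6 and 333.9 CPM in the tumours. Without the 4 thymus libraries with the chromosome 15 score above 0.2925, 30 members were higher (2627 of 12611 genes) and the median was 1.33. Of the other pathway genes 42 of 91 were higher and 1 lower, with Rrp15 at 1.56 and Dis3 at 1.41. Proliferation markers were higher as well (13 of 15), and red cell markers were lower (5 of 5 tested), with sums of 6.64 to 1416 CPM in the tumours and 19.3 to 1990 CPM in the thymus.

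**Figure D3:**
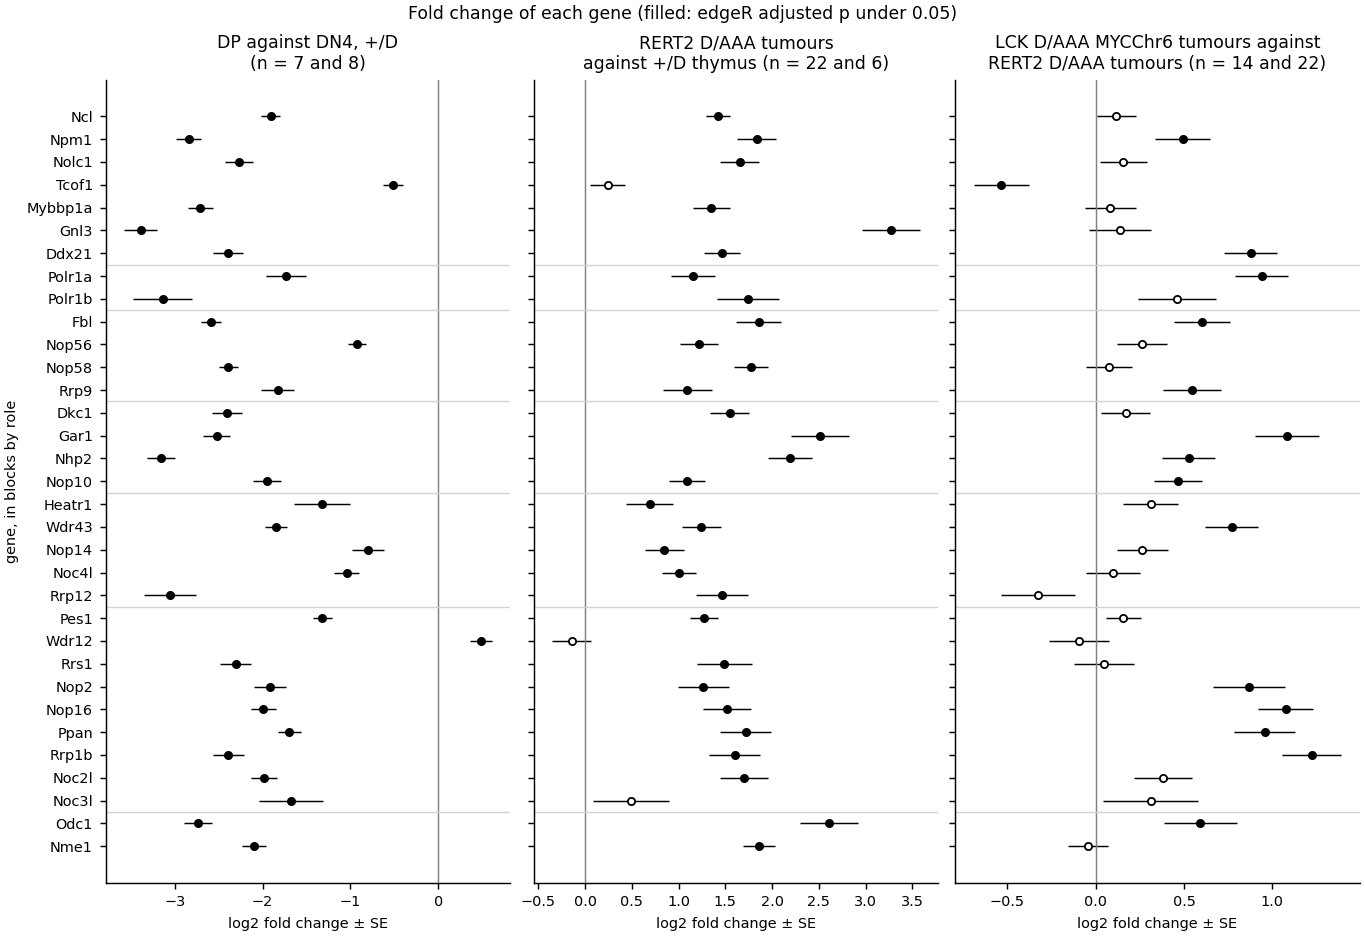
Log2 fold change with its SE (horizontal axis) of each member (vertical axis, in blocks by role) in 3 comparisons: +/D DP against DN4, RERT2 D/AAA tumours against +/D thymus, and LCK D/AAA MYCChr6 tumours against RERT2 D/AAA tumours, with filled points for an edgeR adjusted p under 0.05. All members but Wdr12 lie below 0 in the first, 30 filled points lie above 0 in the second, and in the third 14 filled points lie above 0 and Tcof1 below.

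In tumours with p53(+/D), 0 of 33 members were called higher and 0 lower than in RERT2-Cdc20(D/AAA) tumours, where 0.742% of genes were higher and 0.55% lower (edgeR). At an unadjusted p under 0.05 there were 4 members, and DESeq2 called 0. The median was 0.08, and Ncl (0.06 ± 0.11), Npm1 (0.27 ± 0.15), Fbl (0.13 ± 0.15), Nop56 (-0.01 ± 0.15) and Polr1b (-0.21 ± 0.23) had differences within 2 SE of 0. Member means ran from 5.637 to 6.132 in these 10 tumours, inside the range of the 22. Of the other pathway genes 2 of 91 were higher, Senp3 (0.57) and Exosc3 (0.51).

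The RERT2-Cdc20(D/AAA) tumours with MYCChr6 had 4 members higher and 0 lower than those without, where 5.65% of genes were higher and 3.57% lower. Ddx21 had 146, 123 and 99.5 CPM in the 3 tumours and 34.0, 62.7 and 94.7 CPM (lowest, median and highest) in the 22. All 3 lay above all 22, and the difference was 0.99 ± 0.22 (adjusted p = 0.00329). Polr1a had 119, 111 and 61.5 CPM against 21.7, 52.1 and 81.8 CPM, so that 1 of the 3 overlapped, and differed by 0.93 ± 0.25 (adjusted p = 0.0144). Gar1 had 23.1, 20.5 and 29.5 CPM against 6.95, 13.96 and 21.5 CPM and differed by 0.83 ± 0.25, and Wdr43 by 0.67 ± 0.21. Ncl (0.05 ± 0.16), Npm1 (0.33 ± 0.24), Fbl (0.40 ± 0.25), Nop56 (0.20 ± 0.24), Polr1b (0.67 ± 0.37) and Myc (-1.01 ± 0.39, adjusted p = 0.114) were not called. The third of these tumours had a B and plasma cell sum of 22440 CPM, and 7 of 8 such markers were higher in the group. Without the first tumour 0 members were called, and without the third 2. DESeq2 and edgeR with relative log expression factors each called 7 (740 of 14047 and 822 of 13708 genes higher). With no filter on low counts edgeR called 2 (1552 of 33292 genes). Of the other pathway genes 4 of 91 were higher, among them Polr1c (1.04) and Nsa2 (0.93), a count near the 5.65% over all genes.

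Against the D/AAA thymus with MYCChr6 (n = 3), the same 3 tumours had 4 members higher and 0 lower, where 0.919% of genes were higher and 1.25% lower, and a median of 1.11. Odc1 had 43.1, 37.0 and 64.3 CPM in the tumours and 12.4, 5.74 and 6.49 CPM in the thymus (2.53 ± 0.43, adjusted p = 0.0405). Gar1 had 23.1, 20.5 and 29.5 CPM against 5.90, 4.16 and 3.74 CPM (2.38 ± 0.42, adjusted p = 0.0419), and Ddx21 146, 123 and 99.5 CPM against 42.2, 36.8 and 36.7 CPM (1.66 ± 0.26). The groups of all 3 genes were apart. Wdr43 was the fourth (1.40 ± 0.25), and Ncl, Npm1, Fbl, Nop56 and Polr1b, with 0.64 to 1.58, were not called. Leaving out any of the 6 libraries left 0 or 1 called. In 1 fit of all groups of the run 8 were called (263 of 18076 genes higher). With no filter on low counts 16 were called (644 of 28308 genes higher). Red cell sums were 23.7 to 103.4 CPM in the tumours and 172.8 to 59620 CPM in the thymus, and B and plasma cell sums 192 to 22440 CPM and 259.5 to 585.1 CPM. Their part was not tested.

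LCK-Cdc20(D/AAA) tumours with MYCChr6 had 14 members higher and 1 lower than RERT2-Cdc20(D/AAA) tumours, where 18.6% of genes were higher and 16.7% lower. These groups differ both in the line and in MYCChr6, which this comparison does not separate. The RERT2 tumours that carry MYCChr6 had member means of 6.138 to 6.630 and the LCK tumours 5.111 to 6.767, and these groups were not compared by a test. The median was 0.31. Rrp1b, a large-subunit factor, had 21.2, 77.5 and 113.0 CPM (lowest, median and highest) in the 14 LCK tumours and 16.2, 32.4 and 57.8 CPM in the 22, with overlap, and was higher by 1.22 ± 0.17 (adjusted p = 4.46e-07). Gar1 (1.08 ± 0.18) had 4.03, 30.2 and 46.4 CPM in the LCK tumours, and Nop16 was higher by 1.07 ± 0.16. Polr1a (0.94 ± 0.15), Fbl (0.60 ± 0.16) and Npm1 (0.49 ± 0.15, adjusted p = 0.0114) were higher as well, while Ncl (0.12 ± 0.11), Nop56 (0.26 ± 0.14) and Polr1b (0.46 ± 0.22) were not called.

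Tcof1 was the member that was lower, with 31.9, 91.2 and 166.5 CPM in the LCK tumours and 84.8, 127.6 and 217.4 CPM in the RERT2 tumours (-0.53 ± 0.16, adjusted p = 0.00721). Mouse Myc was lower too, with 53.4, 90.2 and 154.8 CPM against 73.7, 157.6 and 333.9 CPM (-0.82 ± 0.19, adjusted p = 0.00102). By role, 3 of 4 H/ACA genes, 4 of 9 large-subunit factors, 2 of 4 C/D genes, 2 of 7 scaffold genes, 1 of 5 small-subunit factors, 1 of 2 polymerase subunits and 1 of 2 enzymes were higher. Of the other pathway genes 32 of 91 were higher and 4 lower, among them Bysl (0.995), Wdr46 (0.84) and Taf1c (-0.68). B and plasma cell markers were higher (7 of 7 tested), and 1 LCK tumour had a sum of 234900 CPM. Without that library 18 members were higher and 1 lower. Within the LCK tumours with MYCChr6, 0 of 33 members were called between D/AAA (n = 14) and +/D (n = 4), at 0.0% of genes higher and 0.0% lower, with 0 members and 653 genes at an unadjusted p under 0.05 and 0 members by DESeq2. The median was 0.17, and 0.32 without the fourth +/D tumour. Npm1 had 831, 801, 840.4 and 955 CPM in the 4 +/D tumours and 276.3, 1149 and 1414 CPM (lowest, median and highest) in the 14.

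The 3 lymphoma libraries of other lines were not tested. The CD4-Cdc20(D/AAA) tumours with MYCChr6 had member means of 6.694 and 6.417 and the p53(-/-) tumour 5.782, all above the +/D thymus range of 4.298 to 4.655.

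**Figure D4:**
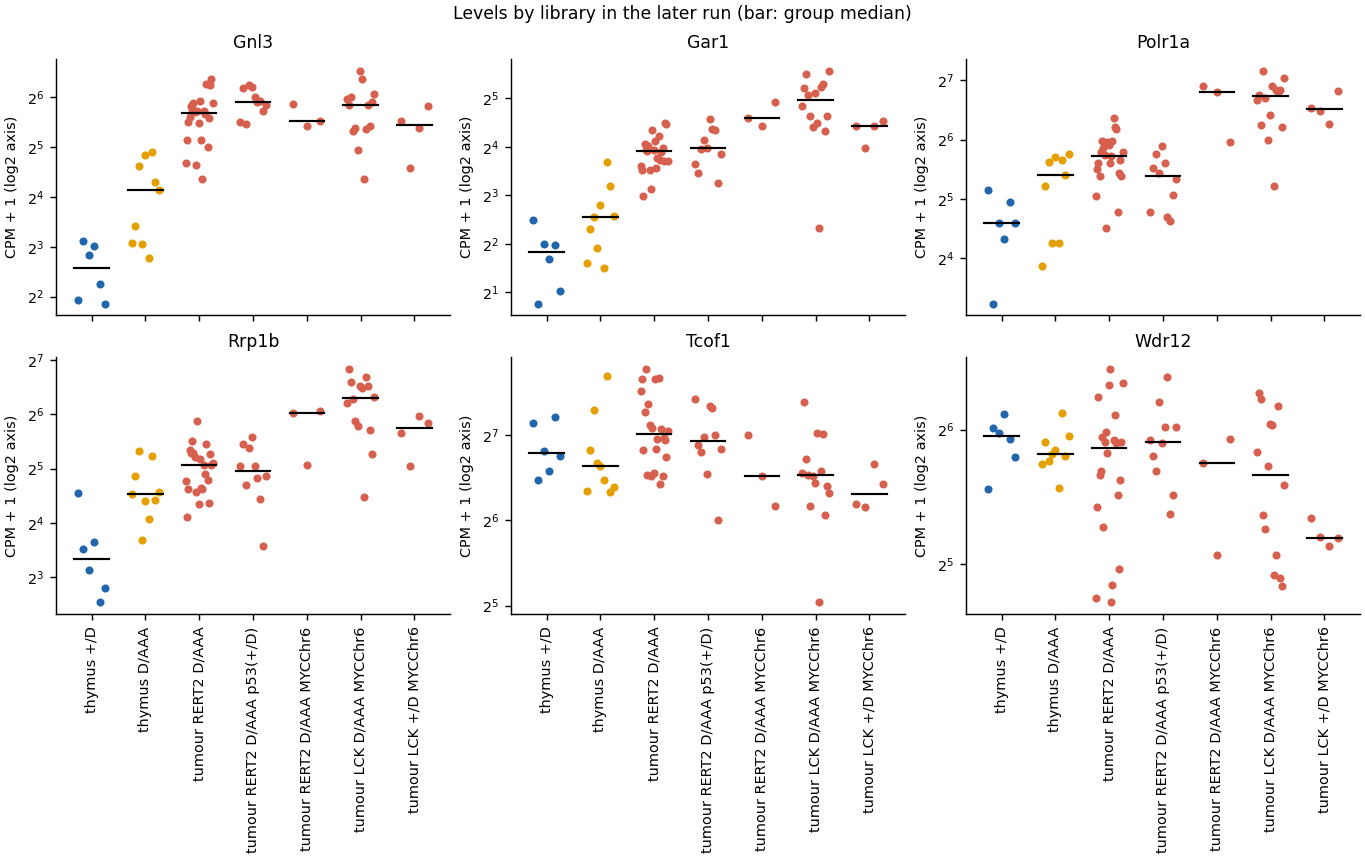
CPM + 1 on a log2 axis (vertical) of Gnl3, Gar1, Polr1a, Rrp1b, Tcof1 and Wdr12 in every library (points) of 7 groups of the later run (horizontal axis), with a bar at the group median. Gnl3 separates the RERT2 D/AAA tumours, from 19.4 CPM up, from +/D thymus, up to 7.66 CPM, whereas the groups of Wdr12 overlap.

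The relation to Myc was measured inside each group of at least 9 libraries, as the slope of a member on log2 CPM of Myc in the same library. A library's depth and cell content enter both its Myc value and its members' values, which these slopes do not separate. In D/AAA DP cells (n = 11, Myc 12.2 to 293 CPM) 14 of the 31 members tested had a positive slope and 0 a negative one, where 1.21% of genes had a positive and 0.15% a negative slope. The median was 0.39. Gnl3 had 0.74 ± 0.10 log2 units per log2 unit of Myc (adjusted p = 0.00137, edgeR quasi-likelihood), Rrs1 0.69 ± 0.11 and Gar1 0.66 ± 0.12, Npm1 0.47 ± 0.10, Fbl 0.44 ± 0.10 and Ncl 0.37 ± 0.09 (adjusted p = 0.0466). Wdr12 (0.03 ± 0.08) and Tcof1 (0.06 ± 0.08) were near 0. With the proliferation gene Mki67 as a second term 16 members were positive (132 of 9308 genes). Without the 2 libraries farthest from the median of Myc, 0 members were called (median 0.19, with 26 of 31 above 0). Without libraries 1 and 5, 0 members were called as well (median 0.19, with 28 of 30 above 0). Both fits leave out library 1, which had the highest Myc, and both narrow the range of Myc. The calls thus depended on few libraries.

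In D/AAA thymus (n = 9, Myc 64.8 to 341.1 CPM) 18 of 31 members tested had a positive slope and 0 a negative one, where 11% of genes had a positive and 9.37% a negative slope. The median was 0.56. The steepest was Fbl at 1.03 ± 0.16 (adjusted p = 0.000488), with Polr1b at 0.84 ± 0.20, Gnl3 at 0.81 ± 0.22, Npm1 at 0.74 ± 0.10, Ncl at 0.69 ± 0.09 (adjusted p = 0.000146) and Nop56 at 0.51 ± 0.13. All 4 C/D genes and all 3 H/ACA genes tested were positive, and 5 of 7 scaffold genes. Wdr12 (0.05 ± 0.12) and Tcof1 (0.36 ± 0.13) were not called. The proliferation markers had positive slopes too (11 of 14 tested), and with Mki67 as a second term 14 members were called positive (562 of 7501 genes). Without the 2 libraries farthest from the median of Myc, 1 member (Npm1) was called, at a median of 0.58.

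In the other groups no member was called. The RERT2-Cdc20(D/AAA) tumours (n = 22, Myc 73.7 to 333.9 CPM) gave 0 of 33 members positive and 0 negative (0.0% and 0.0% of genes), with 17 members and 879 genes at an unadjusted p under 0.05 and a median slope of 0.30. Ncl had a slope of -0.02 ± 0.09 there, Gnl3 0.51 ± 0.14 and Ppan 0.64 ± 0.14 (adjusted p = 0.116). With no filter on low counts, 9 members were called positive (233 of 32533 genes). The p53(+/D) tumours (n = 10) gave 0 of 33, where 0.0862% of genes had a positive and 0.0246% a negative slope (0 members at an unadjusted p under 0.05). The LCK D/AAA tumours (n = 14) gave 0 of 33 at 0.0% and 0.0% of genes, with 2 members at an unadjusted p under 0.05. The D/AAA DN1 cells (n = 9) gave 0 of 20 tested at 0.0% and 0.0%, again with 2. The median slope was 0.11 in the p53(+/D) tumours, with 21 of 33 above 0. In the LCK D/AAA tumours it was 0.39, with 30 of 33 above 0. Without LCK tumour library 9 it was 0.13, with 25 of 33 above 0. The median in the D/AAA DN1 cells was -0.46, with 4 of 20 above 0, and 0.13 with no filter on low counts (19 of 33 above 0). These DN1 fits held the library of 21199 counts. Without it 33 members and 9708 genes were tested and 0 called, at a median of -0.23 with 13 of 33 above 0. DESeq2 was not run for slopes.

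**Figure D5:**
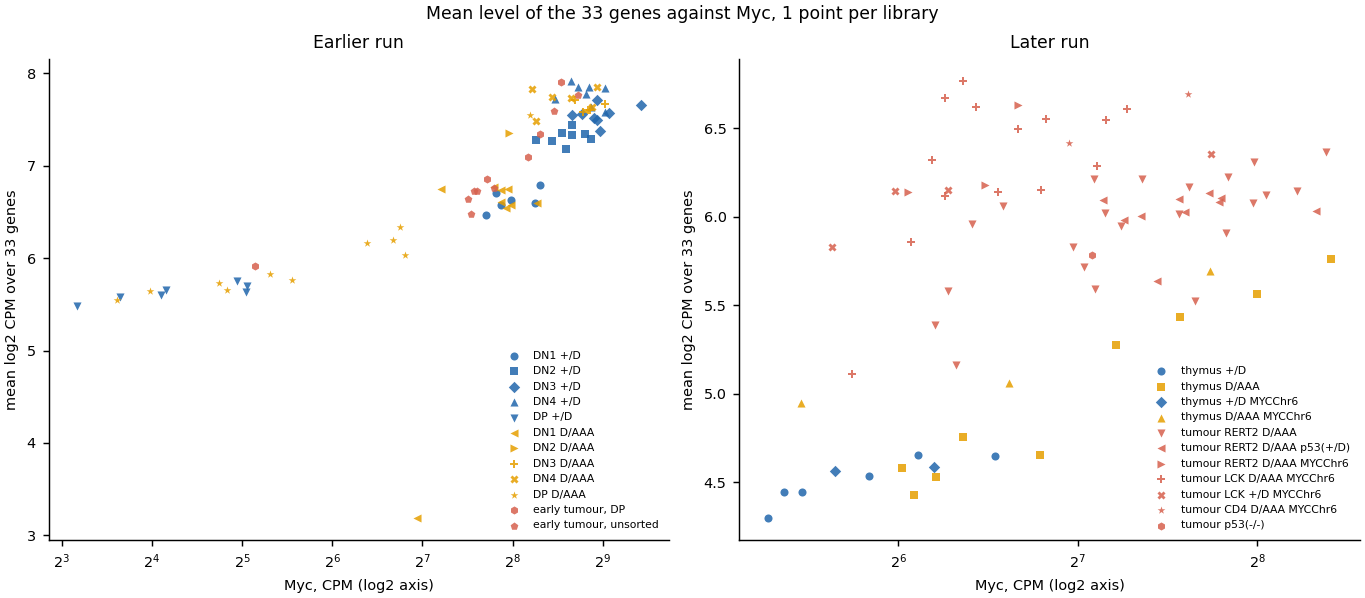
Mean log2 CPM over the 33 members (vertical axis) against Myc in CPM on a log2 axis (horizontal axis), with 1 point per library and a symbol per group, for the earlier run (left) and the later run (right). Among D/AAA DP cells the library with the highest Myc, 293 CPM, also has the highest member mean, 7.553, and in D/AAA thymus the 4 libraries with member means above 5.2 have the 4 highest Myc.

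Wdr12 and Tcof1, singled out after their values had been seen, went apart from most other members in some of these comparisons and with them in others. Wdr12 rose from DN4 to DP, was lower in the unsorted early tumours than in DP cells and showed no called change between lymphoma and thymus. From DN1 to DN2 it rose most of all members, at a step where 29 of 33 members lay above 0. In the DP early tumours Wdr12 had 286, 328, 261, 287 and 255 CPM, inside the 173.2 to 307.9 CPM of D/AAA DP cells in 4 of the 5. Tcof1 fell least at the DP stage, was lower in LCK tumours than in RERT2 tumours, and was not called between lymphoma and thymus. Noc3l was not called between lymphoma and +/D thymus either. Tcof1 was also lower in DP early tumours than in DN4 cells, but there only 4 of 33 members lay above 0 and Ppan was called lower too. Reads of some members may be shared with neighbours: 8 hold snoRNA genes on their own strand (Ncl, Nop56, Nop58, Gnl3, Dkc1, Odc1, Ppan and Wdr43), 12 overlap a protein-coding gene, and Nme1 shares 11315 bases on the same strand with Gm20390, so its values are uncertain.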

How the data were processed

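Bulk RNA-seq was made from 157 mouse libraries on a HiSeq2000, per the labels' protocols from sorted thymocytes or from lymphoma cells, after RNA extraction with an RNeasy Plus Mini kit. FastQC, STAR 2.5.3a and RSEM 1.3.0 were the tools and GRCm38 the genome, per the submitters' processing notes. The authors deposited 2 tables of expected counts per gene, as RSEM estimates them, and every value in them was whole. Neither the strand setting nor the release of the gene annotation is stated in the sources used here. Symbols and positions came from a GRCm38 annotation that may not be the authors' own.

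From these counts, low genes were dropped with filterByExpr, TMM factors were computed within each fit, and edgeR 4.0.16 (R 4.3.3) tested group differences by robust quasi-likelihood, 2-sided. The 4 stage steps shared 1 fit and the other comparisons were fitted on their own groups. Adjusted p-values are Benjamini-Hochberg over all genes tested, with a threshold of 0.05. A fold change is on the log2 scale with its SE, its size over the root of the F statistic. CPM used TMM-scaled totals of each run. Slopes took log2 CPM of Myc (prior count 2) as a covariate within groups of at least 9 libraries. All 33 members passed the filter in each of the 19 group comparisons, and 20 to 33 in the slopes.

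The members and gene lists were chosen with earlier results of these data known. Named in each comparison were Ncl, Npm1, Fbl, Nop56, Polr1b, Myc, up to 3 members with the largest called change in each direction, and up to 2 genes of the other lists. Tried as alternatives were DESeq2 1.42.0, scaling by relative log expression, keeping low genes, 1 fit of all groups of a run, the blocks of the earlier run (56 and 25 libraries) on their own, and fits with libraries or CT010467.1 left out. The blocks were the first 56 and the last 25 libraries by title number, and no label names them. All +/D libraries of the earlier run lay in the first block and all early tumours in the second. The D/AAA cells sorted as DN1, DN3, DN4 and DP lay in both. Block is therefore not fully separated from genotype or tumour in the comparisons of that run. Fits were tested on simulated data. Promoters came from RefSeq (GRCm38.p6). Figures used matplotlib 3.10.9 in Python 3.11.15.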

Additional observations from a re-analysis of the deposited data

Results flagged for a closer look

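In groups of 4 to 10 libraries, a library was singled out where its gap to the nearest other, over the group's range, was above Dixon's 95% critical value. Of 98 such groups of values 11 held one, and chance alone gives about 1 in 20. In D/AAA DN1 cells the library with 21199 counts had the lowest member mean (3.185 log2 CPM), with Npm1 at 0.0 CPM and Fbl at 0.0 CPM, which at that depth shows only that no count was seen. In +/D DP cells 1 library had the highest Ncl (491.1 CPM) and 1 the highest Npm1 (234.7 CPM). Fbl was lowest at 199.6 CPM in 1 +/D DN4 library and highest at 28.98 CPM in 1 +/D thymus library. Nop56 was highest at 705.2 CPM in 1 +/D DN2 library. Among the p53(+/D) tumours 1 had the lowest member mean (5.637 log2 CPM) and 1 the highest Myc (320.9 CPM). Among the LCK +/D MYCChr6 tumours 1 had the highest Myc (214.5 CPM).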

How the results depend on the processing

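None of the called changes and slopes of the genes named by rule reversed its direction under the alternatives run; other genes were not followed through them. Some medians did change sign. Near 0, that of D/AAA against +/D was -0.006 at DN1 and 0.009 with DESeq2, and 0.021 at DN4 and -0.028 in 1 fit of all groups. Farther from 0, the median Myc slope in D/AAA DN1 cells was -0.457 over 20 members. With no low-count filter it was 0.128 over 33 members. Of 50 counts of called members, 33 kept within 1.5 times their value under every alternative run and 17 did not under some. Most of the 50 counts were 0, and a 0 that stayed 0 is among those that kept their value. Most of the counts above 0 moved under some alternative. With DESeq2, 5 members rose from DN3 to DN4, 3 were higher and 1 lower in D/AAA DP cells, 10 were higher in DP early tumours than in D/AAA DP cells and 6 lower than in D/AAA DN4 cells, 1 was higher in D/AAA thymus, and 7 were higher in RERT2 tumours with MYCChr6 (7 with relative log expression factors). In 1 fit of all groups of a run, 16 members rose from DN1 to DN2, 0 from DN2 to DN3, 0 from DN3 to DN4 and 0 from DN4 to DP, 7 were higher in D/AAA DP cells, 23 in DP early tumours than in DP cells, 1 higher and 5 lower than in DN4 cells, 1 in D/AAA thymus and 8 in RERT2 MYCChr6 tumours than in their thymus. With no low-count filter, 4 members were lower in DP early tumours than in DN4 cells, 2 and 16 were higher in RERT2 MYCChr6 tumours than in RERT2 tumours and in their thymus, and 9 had a positive slope on Myc in RERT2 tumours. For DP early tumours against DP cells, 19 members were higher within the block of 25 libraries (548 of 11414 genes) and 27 without DP libraries 1 and 5. Counts over all genes moved under these alternatives as well. Leaving out 1 library at a time gave 0 to 16 higher members in DP early tumours against DP cells, 0 to 11 lower against DN4 cells, 0 to 4 higher in RERT2 MYCChr6 tumours against RERT2 tumours and 0 to 1 against their thymus.

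Alternatives chosen after seeing the data gave 1 member from DN2 to DN3 without +/D DN2 libraries 2, 4 and 8, 8 higher and 2 lower in unsorted early tumours without tumours 2 and 3, and 0 positive slopes on Myc in D/AAA DP cells without libraries 1 and 5. The fits without the D/AAA thymus libraries with a high chromosome 15 score (0 members against +/D thymus, and 30 in tumours against D/AAA thymus) and without LCK tumour library 9 (18 higher) were also chosen then. The planned slopes on Myc gave 0 positive members in D/AAA DP cells without the 2 libraries farthest from the median Myc and 1 in D/AAA thymus without the 2 farthest. The cause of these moves was not tested, beyond the fewer libraries or genes that some use by construction. No paired analysis was possible because the labels carry no replicate numbers. Depth limits the D/AAA DN1 library of 21199 counts, and the groups of 3 libraries limit the MYCChr6 comparisons.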
